A study of Homo sapiens with 36 samples.

Results

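The genes described here encode the machinery of MHC class I antigen presentation, and the list holds 9 of them: HLA-B, HLA-E, HLA-F, B2M, TAP1, TAP2, PSMB8, PSMB9 and NLRC5. A gene counted as measured where the array had a probe annotated with its symbol alone, and where several such probes existed the one with the highest mean over all arrays was used. By this rule 8 of the 9 genes were measured, out of 17958 genes with such a probe. HLA-E was not measured, because the 3 probes that carry its symbol also carry others.

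Class I molecules show peptides from inside the cell to CD8+ T cells. The proteasome cuts proteins into peptides, the transporter formed by TAP1 and TAP2 carries them into the endoplasmic reticulum, and there they are loaded onto a class I heavy chain paired with beta-2 microglobulin, the product of B2M. Interferon gamma raises many of these genes together, including PSMB8 and PSMB9, which encode catalytic subunits that replace constitutive ones in the immunoproteasome, and NLRC5, which acts as a transactivator of class I genes. MEK and ERK signalling is known to restrain class I expression in several tumour types, and DUSP4 is a phosphatase that removes phosphate from MAP kinases.

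The study used single-colour Affymetrix arrays to find which genes respond to inhibition of MEK or to a loss of DUSP4 in MDA231, SUM159PT and BT549, human cell lines from breast cancers. Each line had 4 groups of 3 arrays, lettered A, B and C: cells given siRNA against DUSP4 (siDUSP4), cells given non-targeting siRNA and the MEK inhibitor selumetinib (AZD6244, 1 uM) for the last 4 h, the same for the last 24 h, and cells given non-targeting siRNA with DMSO as the drug's vehicle (siCONTROL). All cells were reverse transfected with 10 nM siRNA and harvested 96 h later, so the selumetinib groups and the controls carry a transfection too. Each line had its own medium, with hydrocortisone in that of SUM159PT, so line and medium cannot be told apart.

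Values are log2 signals, normalized by the authors with RMA, and a step of 1 is a doubling of signal. One limma model was fitted to all 36 arrays and all 17958 genes. A gene was called higher or lower at a Benjamini-Hochberg adjusted p under 0.05 within a comparison, and all adjusted p-values below come from this limma fit. A change is given with its standard error (SE), and n was 3 arrays for every group mean. The 3 contrasts within a line share the same siCONTROL arrays, so their values are given side by side only. Nothing in the labels tells if arrays A, B and C came from separate cultures, and the p-values then measure a spread between arrays that may be technical.

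The targeted gene followed its label in all 3 lines. DUSP4 had 7.43, 7.76 and 7.72 log2 units in siDUSP4 cells of MDA231, against 10.15, 10.03 and 9.99 in siCONTROL cells. Its changes with siDUSP4 were -2.42 in MDA231, -1.84 in SUM159PT and -2.24 in BT549. A low DUSP4 signal was not particular to siDUSP4. With selumetinib DUSP4 changed by -2.35, -1.35 and -0.66 in these lines after 4 h, the last not called (adjusted p = 0.062). After 24 h its changes were -1.26, -0.85 and -0.72. DUSP6, a feedback target of ERK, changed by -4.53, -2.91 and -1.60 after 4 h of selumetinib in these lines and by -3.16, -2.28 and -0.96 after 24 h. With siDUSP4 it was not called in any line, at -0.22 in MDA231, 0.04 in SUM159PT and -0.06 in BT549. The titles set the line here, although on 24 arrays the source name gives BT549 for SUM159PT or the reverse. In siCONTROL cells RB1, a gene BT549 is known to lack, averaged 10.31 in MDA231, 9.40 in SUM159PT and 6.83 in the arrays titled BT549. Of 8 blood and immune markers measured, 6 lay below the median of all probe values, 5.27, on average over the 36 arrays, and so did 2 of 3 endothelial markers. The highest of the blood markers was CD68, with a mean of 9.93. In siCONTROL cells of SUM159PT 3 of the 8 lay above that median, CD68 among them, with PTPRC at 5.75 (3.77 times the BT549 signal) and CD14 at 6.94 (5.38 times). The summed unlogged signal of the 8 markers in siCONTROL cells was highest in MDA231. It was 1880 to 2150 there, 1090 to 1170 in SUM159PT and 774 to 945 in BT549. Between MDA231 and SUM159PT 2 markers were called higher in MDA231 and 3 lower, where 44.8% of all genes were called. The part of these markers in the lines' class I levels was not tested. In bulk samples, fewer cells of a type and less RNA per cell cannot be told apart.

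The arrays differed in the spread of their signal. The upper quartile of all probe values was 7.48 on the MDA231 4 h array B, 7.50 on the BT549 24 h array A and 7.66 on the MDA231 4 h array C, while the next were SUM159PT 4 h arrays at 7.70 and 7.76 and the highest of the 36 arrays reached 8.03. Only the first 2 were set apart from the next array by a wide gap. The third array of the MDA231 4 h group, A, had an upper quartile of 7.95. Member changes called in a comparison that holds these 3 arrays of lowest upper quartile were also fitted without them. That setting leaves the MDA231 4 h group with 1 array, which is then assumed to vary like the other groups.

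Upstream sequence is shown for every member that RefSeq's promoter table held, because the class I genes are known for shared promoter elements and because TAP1 and PSMB9 start next to each other in opposite directions. The table (GRCh38.p14) held 7 of the 9 genes, all but HLA-E and NLRC5. Each line gives the 250 bases before the first listed start, 5′ to 3′ on the gene's own strand. Capitals mark matches on either strand to 5 motifs: the core of the interferon-stimulated response element (ISRE, GAAANNGAA), the gamma-activated site (GAS, TTCNNNGAA), a kappaB site (GGGANTCCC), a cyclic AMP response element half-site (CRE half-site, TGACG) and the CCAAT box.
HLA-B, chr6:31357180-31357429, minus strand: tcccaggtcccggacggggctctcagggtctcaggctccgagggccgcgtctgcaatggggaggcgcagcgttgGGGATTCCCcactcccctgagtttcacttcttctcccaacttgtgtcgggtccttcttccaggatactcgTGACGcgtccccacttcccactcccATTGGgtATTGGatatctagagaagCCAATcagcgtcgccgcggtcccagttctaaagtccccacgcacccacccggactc
HLA-F, chr6:29723184-29723433, plus strand: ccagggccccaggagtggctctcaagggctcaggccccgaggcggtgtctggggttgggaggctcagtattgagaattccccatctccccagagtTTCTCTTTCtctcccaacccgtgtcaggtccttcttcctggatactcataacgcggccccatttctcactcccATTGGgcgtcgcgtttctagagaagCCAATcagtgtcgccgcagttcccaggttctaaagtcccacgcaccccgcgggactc
B2M, chr15:44711267-44711516, plus strand: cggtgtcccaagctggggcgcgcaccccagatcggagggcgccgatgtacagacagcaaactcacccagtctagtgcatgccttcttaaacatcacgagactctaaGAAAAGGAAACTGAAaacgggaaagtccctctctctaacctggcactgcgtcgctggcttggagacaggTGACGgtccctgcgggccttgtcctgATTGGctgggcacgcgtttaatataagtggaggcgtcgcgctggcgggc
PSMB8, chr6:32844680-32844929, minus strand: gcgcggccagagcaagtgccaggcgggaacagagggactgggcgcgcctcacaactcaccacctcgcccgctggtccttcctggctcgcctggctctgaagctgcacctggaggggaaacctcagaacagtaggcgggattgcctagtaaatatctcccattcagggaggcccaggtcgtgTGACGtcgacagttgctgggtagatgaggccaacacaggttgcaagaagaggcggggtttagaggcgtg
TAP1, chr6:32853705-32853954, minus strand: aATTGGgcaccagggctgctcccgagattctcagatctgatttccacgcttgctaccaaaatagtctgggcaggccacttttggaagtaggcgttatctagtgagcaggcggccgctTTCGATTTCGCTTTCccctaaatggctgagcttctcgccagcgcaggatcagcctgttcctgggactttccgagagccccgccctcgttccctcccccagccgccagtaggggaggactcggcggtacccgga
TAP2, chr6:32838740-32838989, minus strand: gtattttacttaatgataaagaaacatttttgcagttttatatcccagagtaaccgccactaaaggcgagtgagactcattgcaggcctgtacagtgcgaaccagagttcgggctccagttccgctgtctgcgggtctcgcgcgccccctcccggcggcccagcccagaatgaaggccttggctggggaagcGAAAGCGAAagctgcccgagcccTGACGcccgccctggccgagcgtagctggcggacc
PSMB9, chr6:32853942-32854191, plus strand: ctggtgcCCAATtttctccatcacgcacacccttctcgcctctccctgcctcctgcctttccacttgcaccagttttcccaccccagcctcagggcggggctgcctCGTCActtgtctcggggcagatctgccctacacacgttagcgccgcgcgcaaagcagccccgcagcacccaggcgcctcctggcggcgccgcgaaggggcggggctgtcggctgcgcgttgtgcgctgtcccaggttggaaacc

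An ISRE core was found before HLA-F, 155 to 147 bases from the start, and before TAP2, 58 to 50 bases from the start. B2M had 2 overlapping cores between 144 and 130 bases, and TAP1 had 2 overlapping cores between 133 and 119 bases. Over all 35116 promoters of the table, 6.88% held an ISRE core in this window. HLA-B had a kappaB match 176 to 168 bases before its start, a motif found in 0.772% of promoters. A CRE half-site, found in 21.2% of promoters, stood before HLA-B, B2M, TAP2, PSMB8 and PSMB9. CCAAT boxes, found in 32% of promoters, numbered 3 before HLA-B, 2 before HLA-F and 1 each before B2M, TAP1 and PSMB9, and they include the pair near the start that HLA-B and HLA-F share, at 56 to 52 and 57 to 53 bases. A GAS motif, found in 6.57% of promoters, stood only before the second listed starts of TAP1 and PSMB8. The starts of TAP1 and PSMB9 are 488 bases apart on opposite strands, and the printed windows share 13 bases, chr6:32853942-32853954. The CCAAT box counted before TAP1 and before PSMB9 is the same 5 bases within that overlap. These are matches of letters in a window and were not tested as sites of binding.

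**Figure D1:**
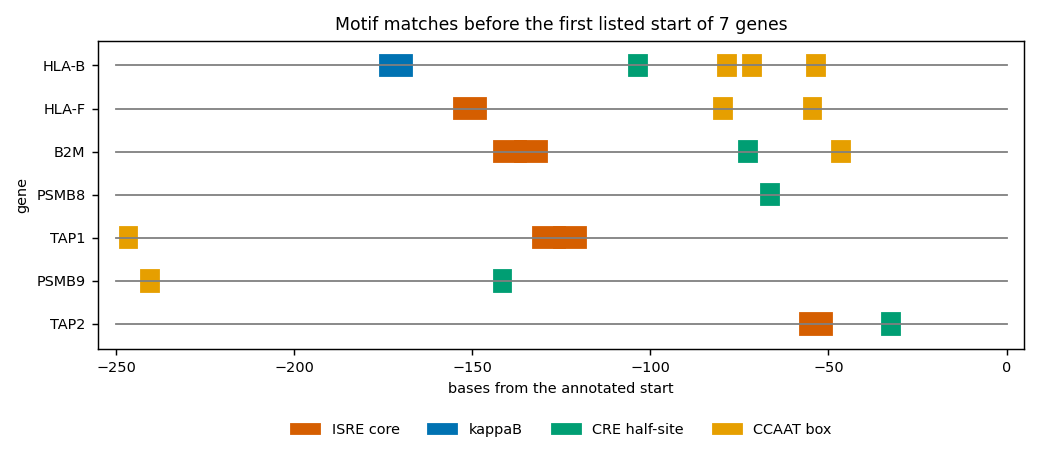
Positions of motif matches in the 250 bases before the first listed start of 7 class I antigen presentation genes, with distance from the start in bases on the x axis and 1 gene per row. Coloured blocks are matches on either strand. ISRE cores lie before HLA-F, B2M, TAP1 and TAP2, and the kappaB match lies before HLA-B.

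Among siCONTROL cells SUM159PT had the highest signal for most class I genes. Of the 8 measured genes, 7 had their highest siCONTROL mean in SUM159PT, and TAP2 alone had its lowest there. All 8 were called between MDA231 and SUM159PT, 7 lower and 1 higher in MDA231, where 44.8% of all genes were called. Between SUM159PT and BT549 7 were called, against 50.2% of all genes, and between MDA231 and BT549 4 were called, against 48.1%.

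The classical heavy chain HLA-B averaged 11.53 ± 0.04 log2 units in MDA231, 12.02 ± 0.04 in SUM159PT and 11.54 ± 0.09 in BT549 (SD, n = 3 each). MDA231 and BT549 did not differ beyond their spread, with a difference of -0.02 and a 95% confidence interval from -0.19 to 0.16. HLA-F, a non-classical heavy chain, averaged 7.63, 8.72 and 7.68 in MDA231, SUM159PT and BT549, and again MDA231 and BT549 were not separated (-0.06, interval -0.28 to 0.17). The heavy chain genes are near-identical over long stretches, so signal at the HLA-B and HLA-F probes can include that of other heavy chains.

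B2M, the light chain shared by all class I molecules, averaged 9.52 ± 0.07 in MDA231, 10.87 ± 0.06 in SUM159PT and 9.99 ± 0.15 in BT549. Each pair of lines was called apart, with MDA231 at 72.1% of the BT549 signal (adjusted p = 0.0038) and SUM159PT at 184% of it (adjusted p = 1.1e-06). TAP1 followed the same order, with 8.61 in MDA231, 9.93 in SUM159PT and 9.15 in BT549. PSMB9 spanned the widest range of the 8 genes, 7.45 ± 0.12 in MDA231, 9.25 ± 0.02 in SUM159PT and 8.22 ± 0.15 in BT549. That is a 3.47-fold range between SUM159PT and MDA231.

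PSMB8, the other immunoproteasome subunit of the list, averaged 6.91 in MDA231, 7.85 in SUM159PT and 7.74 in BT549, and SUM159PT and BT549 were not separated (0.11, interval -0.19 to 0.42). NLRC5 averaged 6.30, 6.99 and 6.19 in MDA231, SUM159PT and BT549, with only SUM159PT set apart. TAP2, the partner of TAP1 in the peptide transporter, ran the other way, with 8.63 ± 0.19 in MDA231, 7.67 ± 0.03 in SUM159PT and 8.66 ± 0.19 in BT549. SUM159PT therefore had 50.5% of the BT549 signal for TAP2 (adjusted p = 9.7e-08) and 172% of it for TAP1 (adjusted p = 4.1e-06).

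**Figure D2:**
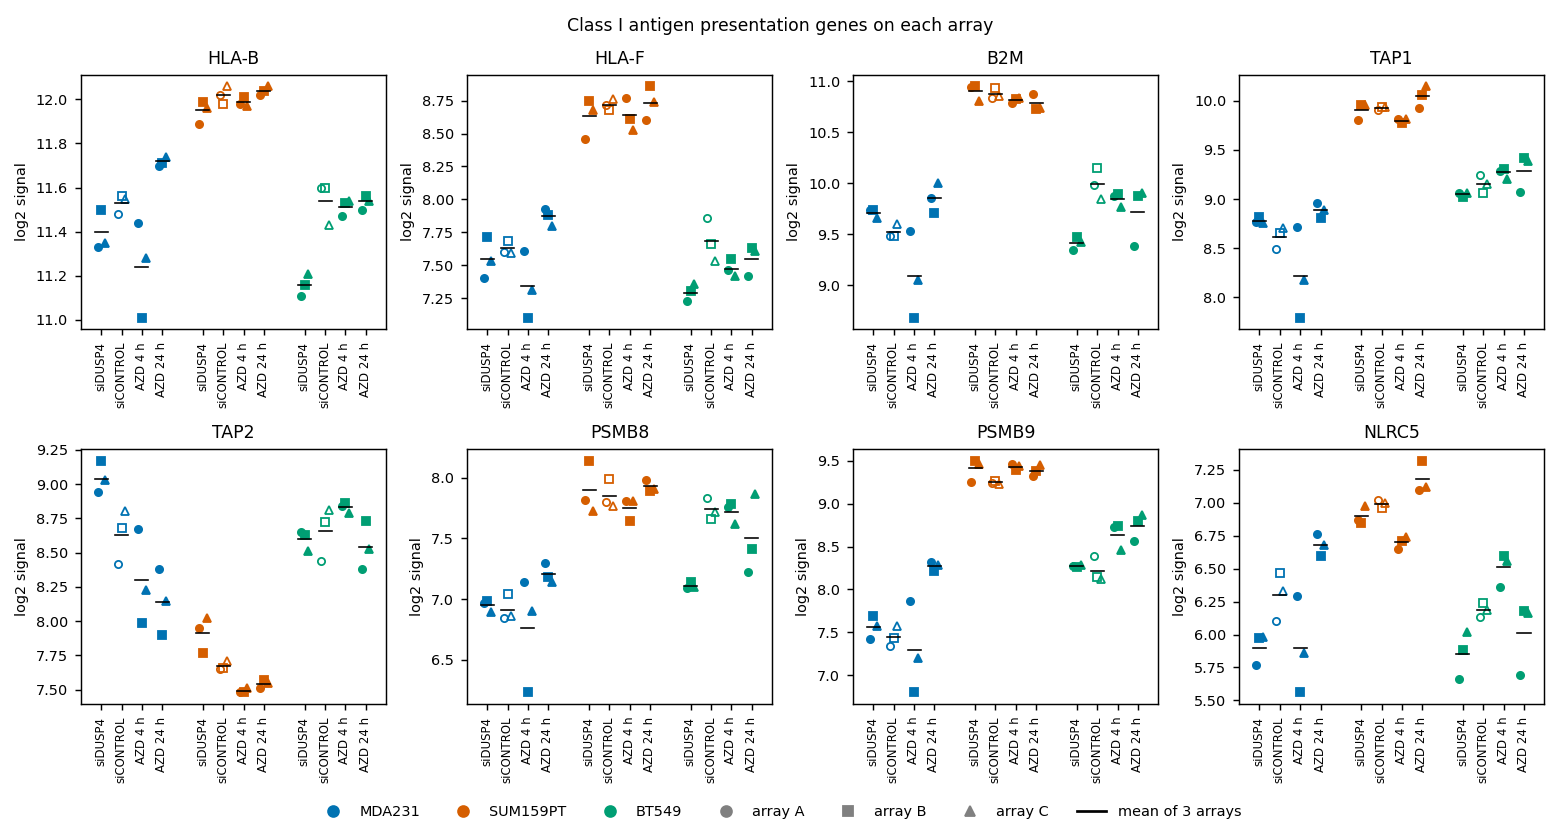
Log2 signal of the 8 measured class I antigen presentation genes on each of 36 arrays, 1 panel per gene. Colours are lines, marker shapes are the replicate letters, open markers are siCONTROL and bars are means of 3 arrays. The siCONTROL mean of SUM159PT is the highest of the 3 lines in all panels but that of TAP2, the siDUSP4 arrays of BT549 lie low for HLA-B, HLA-F, B2M and PSMB8, and the MDA231 4 h arrays B and C lie below array A in every panel.

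After siDUSP4 part of the pathway was lower in BT549. HLA-B, HLA-F, B2M and PSMB8 fell, with 64.6% to 76.7% of the control signal left, while TAP1, TAP2 and PSMB9 stayed within 0.10 log2 units of control. In BT549, 4 of 8 members were lower and 0 higher, where 9.22% of all genes were called lower and 14.2% either way. The members' median change was -0.36, and that of all genes was 0.01.

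HLA-B had 11.11, 11.16 and 11.21 log2 units in siDUSP4 cells of BT549, against 11.60, 11.60 and 11.43 in siCONTROL cells. The groups did not overlap, and the change was -0.38 ± 0.08 (SE, adjusted p = 0.0017). HLA-F had 7.23, 7.30 and 7.36 in siDUSP4 cells, against 7.86, 7.66 and 7.53 in siCONTROL cells, a change of -0.39 ± 0.11 (adjusted p = 0.015). Without the siDUSP4 array A or without the siCONTROL array A, HLA-F was no longer called.

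B2M had 9.34, 9.47 and 9.42 log2 units in siDUSP4 cells of BT549, against 9.98, 10.15 and 9.84 in siCONTROL cells. Every siDUSP4 array was below every siCONTROL array, and the signal was 66.8% of control (change -0.58 ± 0.14, adjusted p = 0.0027). PSMB8 showed the largest change of the 8 genes, with 7.09, 7.14 and 7.10 in siDUSP4 cells, against 7.83, 7.66 and 7.72 in siCONTROL cells (change -0.63 ± 0.15, adjusted p = 0.0033). The 2 groups of PSMB8 values were tight and well apart.

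NLRC5 was lower on all siDUSP4 arrays of BT549, with 5.66, 5.88 and 6.02, against 6.13, 6.24 and 6.19 on the siCONTROL arrays, but did not pass (change -0.33 ± 0.13, adjusted p = 0.10). PSMB9, which shares the immunoproteasome with PSMB8, had 8.27, 8.26 and 8.29 in siDUSP4 cells, against 8.39, 8.14 and 8.12 in siCONTROL cells. Its change was 0.05, with an interval from -0.24 to 0.35. The intervals were -0.37 to 0.16 for TAP1 and -0.33 to 0.21 for TAP2. For 5 members the siDUSP4 and siCONTROL arrays of BT549 did not overlap, as for 38.7% of all genes.

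In SUM159PT, with 2.83% of all genes called after siDUSP4, 0 of 8 members passed the limma test. An unadjusted p under 0.05 was reached by 0 members and by 2415 of all 17958 genes. The changes there ran from -0.09 for HLA-F and NLRC5 to 0.24 for TAP2, whose 3 siDUSP4 arrays, 7.95, 7.77 and 8.02, lay above the 3 siCONTROL arrays, 7.65, 7.66 and 7.71. B2M changed by 0.02 (interval -0.25 to 0.30) and PSMB8 by 0.05 (interval -0.26 to 0.35). The lower ends of both intervals lie above the changes measured in BT549.

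In MDA231, with 17.6% of all genes called, 1 member was higher and 1 lower after siDUSP4. TAP2 had 8.94, 9.17 and 9.03 in siDUSP4 cells, against 8.42, 8.68 and 8.80 in siCONTROL cells (change 0.41 ± 0.13, adjusted p = 0.027). NLRC5 had 5.77, 5.97 and 5.98 in siDUSP4 cells, against 6.10, 6.47 and 6.33 in siCONTROL cells (change -0.39 ± 0.13, adjusted p = 0.039). Both pairs of groups were apart by little, and no more than 1 of the 2 calls was left when any 1 array of these groups was taken out. A fit to the 12 arrays of MDA231 alone called 0 of 8. The share of all genes called in these refits is not given, so their counts are not read as results about the members.

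Whether the siDUSP4 effect differed between lines was tested with an F test, which called 2 of 8 members, against 15.5% of all genes. For B2M the changes were 0.19 in MDA231, 0.02 in SUM159PT and -0.58 in BT549 (adjusted p = 0.0092). For PSMB8 they were 0.03, 0.05 and -0.63 (adjusted p = 0.030). The PSMB8 call was lost with all probes tested (0.059), without the siDUSP4 array B of SUM159PT (0.053), without the siCONTROL array A (0.076) or C (0.059) of BT549, and without any 1 of the siDUSP4 arrays of BT549 (0.054 to 0.069). The B2M call was kept in every setting that gave this test. HLA-B, with -0.13, -0.07 and -0.38, did not pass (adjusted p = 0.13), and neither did HLA-F (adjusted p = 0.27), so a difference between lines was not shown for the heavy chains.

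**Figure D3:**
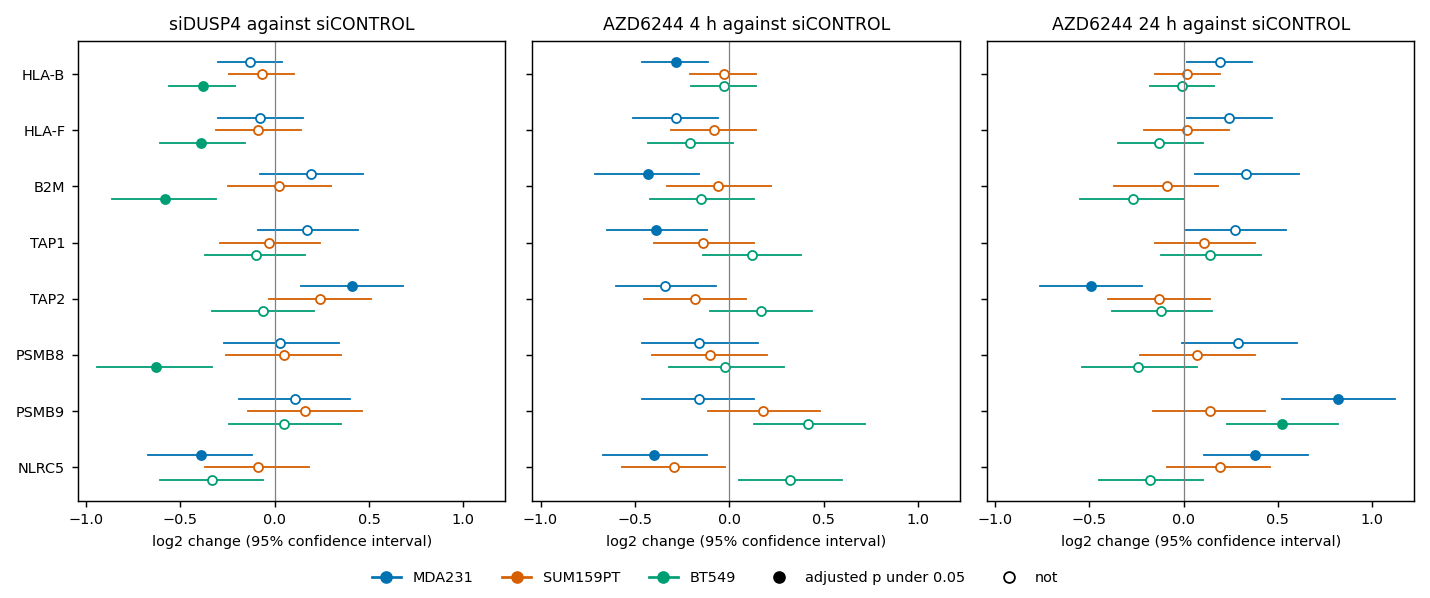
Log2 change of 8 class I antigen presentation genes against siCONTROL, in 3 panels for siDUSP4, 4 h and 24 h of AZD6244, with 95% confidence intervals from limma. Colours are lines, and filled points have an adjusted p under 0.05. After siDUSP4 the filled points of BT549 lie between -0.63 and -0.38, and after 24 h the filled points of PSMB9 lie at 0.82 in MDA231 and 0.52 in BT549.

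Under selumetinib, 7 of the 8 class I genes were higher at 24 h than at 4 h in MDA231. In that comparison 24.9% of all genes were called, 3666 higher and 805 lower. At 24 h PSMB9 was higher than in siCONTROL cells in MDA231 and BT549, and TAP2 was lower in MDA231. SUM159PT showed no call against siCONTROL at either time. The 4 h values of MDA231 rest on 2 of the arrays of low upper quartile, and so do the 24 h against 4 h values.

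After 4 h, 4 of 8 members were called lower in MDA231 and 0 higher, where 14.5% of all genes were called lower, 15.6% either way, and the median change of all genes was -0.13. They were HLA-B (change -0.28, adjusted p = 0.022), B2M (-0.43, adjusted p = 0.028), TAP1 (-0.39, adjusted p = 0.039) and NLRC5 (-0.40, adjusted p = 0.043). The 3 arrays of the group differed. TAP1 had 8.71, 7.79 and 8.17 on the 4 h arrays A, B and C, against 8.49, 8.65 and 8.70 on the siCONTROL arrays, so array A lay above all controls and B and C below them. Array B was below all siCONTROL arrays for 8 of 8 members and array C for 7 of 8, while array A was below them for 1 and above them for 3. The share of all genes so placed on each array is not given, so these counts are not read as results about the members. In this comparison 13212 of all 17958 genes had a negative change.

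Without the arrays of low upper quartile, the 4 h change in MDA231 was 0.01 for B2M, 0.10 for TAP1, -0.09 for HLA-B and -0.01 for NLRC5. Without the siCONTROL array B the count of called members was 0. It was 7 without the 4 h array A, which leaves only the arrays of low upper quartile in that group. Where a single array was left out the share of all genes called is not given, so those counts are not read as results about the members. With the upper quartiles of all arrays aligned, a setting chosen after seeing the data, 0 of 8 members and 9.44% of all genes were called. The part of the low upper quartiles in the calls at 4 h was not tested further. In SUM159PT, with 4.28% of all genes called, and in BT549, with 0.652%, limma called 0 of 8 members at 4 h.

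At 4 h, 2 of 8 members had an unadjusted p under 0.05 in BT549, as did 1412 of all 17958 genes. PSMB9 had 8.73, 8.74 and 8.46 in BT549 cells after 4 h, against 8.39, 8.14 and 8.12 in siCONTROL cells, groups that did not overlap (change 0.42 ± 0.15, adjusted p = 0.31). NLRC5 had 6.36, 6.60 and 6.56 after 4 h, against 6.13, 6.24 and 6.19 in siCONTROL cells (change 0.32 ± 0.13, adjusted p = 0.49). In SUM159PT NLRC5 lay at 6.65, 6.71 and 6.74 after 4 h, against 6.99 ± 0.03 in siCONTROL cells (mean and SD), groups also apart but in the other direction (change -0.29 ± 0.13, adjusted p = 0.22). The F test of a line difference at 4 h gave NLRC5 an adjusted p of 0.058 and called 0 of 8 members, with 1.84% of all genes called.

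After 24 h, PSMB9 gave the largest change of the 8 genes in MDA231. It had 8.32, 8.21 and 8.29 log2 units at 24 h, against 7.34, 7.44 and 7.58 in siCONTROL cells, and the groups were far apart. The signal was 177% of control (change 0.82 ± 0.15, adjusted p = 7.7e-05), and PSMB9 was called in every other setting tried. In BT549 PSMB9 had 8.56, 8.80 and 8.87 at 24 h, against 8.39, 8.14 and 8.12 in siCONTROL cells, 144% of control (change 0.52 ± 0.15, adjusted p = 0.017). This call was lost without the siCONTROL array B or C. Without the array of low upper quartile the BT549 change was 0.62 (adjusted p = 0.00033). In SUM159PT, where PSMB9 started highest, it had 9.32, 9.38 and 9.45 at 24 h, against 9.24, 9.27 and 9.23 in siCONTROL cells (change 0.14, interval -0.16 to 0.43).

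TAP2 fell in MDA231, with 8.38, 7.90 and 8.15 at 24 h, against 8.42, 8.68 and 8.80 in siCONTROL cells (change -0.49 ± 0.13, adjusted p = 0.0073). NLRC5 had 6.76, 6.60 and 6.68 at 24 h, against 6.10, 6.47 and 6.33 in siCONTROL cells (change 0.38 ± 0.13, adjusted p = 0.047). The TAP2 call was lost without the siCONTROL array C (adjusted p = 0.055) or the 24 h array B (0.088), and the NLRC5 call was lost without any 1 of these 6 arrays other than the siCONTROL array B. These 2 genes and PSMB9 made 3 called members of 8 in MDA231, where 17.7% of all genes were called.

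The other 5 members in MDA231 were above control without passing, at 0.19 for HLA-B, 0.24 for HLA-F, 0.33 for B2M, 0.27 for TAP1 and 0.29 for PSMB8, with adjusted p-values from 0.091 to 0.21. For all 8 members the 24 h and siCONTROL arrays of MDA231 did not overlap, as for 33.2% of all genes. B2M, for example, had 9.85, 9.71 and 10.00 at 24 h, against 9.48, 9.48 and 9.60 in siCONTROL cells. This comparison holds none of the 3 arrays of lowest upper quartile, but the model's estimate of spread does. With those arrays out of the fit, a setting added after seeing the data, the changes were the same and 8 of 8 members were called. The adjusted p-values were 0.019 for HLA-B, 0.046 for HLA-F, 0.0015 for B2M, 0.0031 for TAP1 and 0.030 for PSMB8. The share of all genes called in that refit is not given, so its count is not read as a result about the members.

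In SUM159PT limma called 0 of 8 members at 24 h, with 4.28% of all genes called. There 0 members and 2952 of all 17958 genes had an unadjusted p under 0.05. In BT549 PSMB9 was the 1 called member, where 15.1% of all genes were called. B2M in BT549 had 9.38, 9.87 and 9.90 at 24 h, against 9.98, 10.15 and 9.84 in siCONTROL cells, with the lowest value on the array of low upper quartile (change -0.27 with that array and -0.10 without it). The F test of a line difference at 24 h called 0 of 8 members, with 9.91% of all genes called. The lowest adjusted p-values of members in it were those of PSMB9 (0.074), B2M (0.082) and NLRC5 (0.13).

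Between the 2 selumetinib times, 7 of 8 members were higher at 24 h than at 4 h in MDA231, where 24.9% of all genes were called and the median change of all genes was 0.12. The changes ran from 0.45 for PSMB8 to 0.98 for PSMB9, with 0.77 for B2M and 0.78 for NLRC5, and TAP2 was the exception at -0.15. The fit without the 3 arrays sets the 24 h group against the 4 h array A alone. Its changes were 0.27 for HLA-B, 0.26 for HLA-F, 0.33 for B2M and 0.17 for TAP1. For PSMB8, PSMB9, NLRC5 and TAP2 they were 0.06, 0.42, 0.39 and -0.53. In SUM159PT NLRC5 was higher at 24 h, with 7.10, 7.32 and 7.12, against 6.65, 6.71 and 6.74 at 4 h (change 0.48, adjusted p = 0.044, with 3.01% of all genes called), and the call was lost without any 1 of these 6 arrays. In BT549 NLRC5 was lower at 24 h, with 5.69, 6.18 and 6.16, against 6.36, 6.60 and 6.56 at 4 h (change -0.50, adjusted p = 0.024, with 7.73% of all genes called). The lowest of these values was on the array of low upper quartile, and without the 3 arrays the change was -0.34 (adjusted p = 0.051). The call was also lost without the 4 h array B (0.087) or C (0.086).

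**Figure D4:**
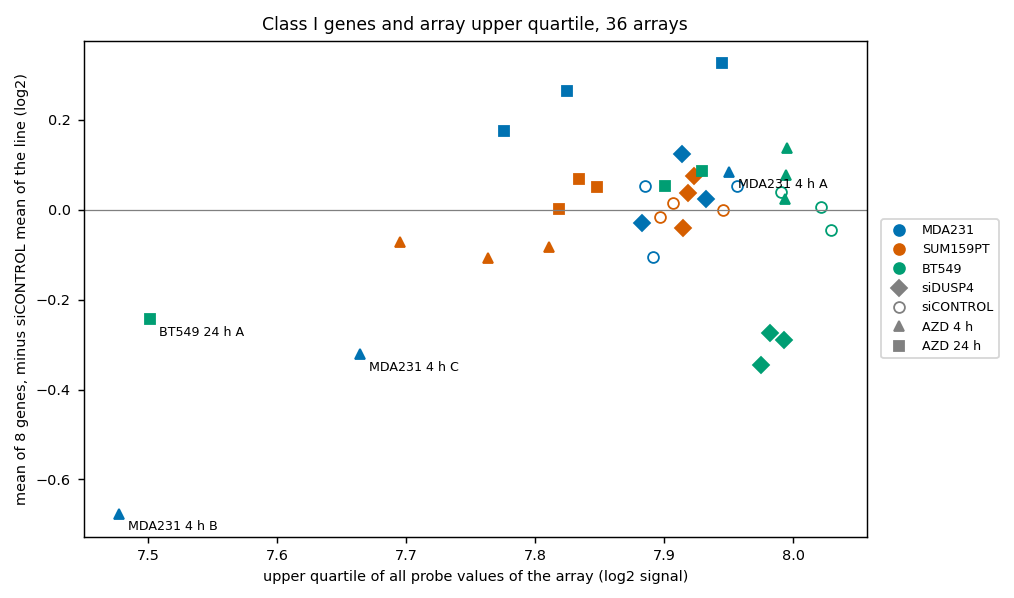
Mean of the 8 class I genes on each of 36 arrays, after subtraction of each gene's siCONTROL mean in the same line (log2, y axis), against the upper quartile of all probe values of that array (log2 signal, x axis). Colours are lines and shapes are groups. The MDA231 4 h arrays B and C lie at -0.68 and -0.32 with upper quartiles of 7.48 and 7.66, the BT549 siDUSP4 arrays lie between -0.35 and -0.28 with upper quartiles of 7.98 and 7.99, and the MDA231 24 h arrays lie between 0.18 and 0.33.

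The genes varied together to different degrees. Over the 36 arrays, with each gene centred on its line's siCONTROL mean, Pearson's r between 2 members ran from -0.07 to 0.87 with a median of 0.62 over 28 pairs. Without the 3 arrays of low upper quartile the median was 0.50 and the range -0.40 to 0.85. The median r was 0.83 within the 12 arrays of MDA231, 0.11 within SUM159PT and 0.56 within BT549. These are descriptions, since the arrays share groups and normalization. The closest pair was HLA-B with HLA-F at 0.87, followed by B2M with PSMB8 at 0.84.

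The 5 genes whose centred values were most like the mean of the 8 members over the 36 arrays were TNFAIP1 (r = 0.93), ATPAF2 (0.93), TCN2 (0.91), TCIRG1 (0.90) and ACP2 (0.90). Without the 3 arrays of low upper quartile these values were 0.86, 0.91, 0.90, 0.85 and 0.87. TCN2 is the transcobalamin that carries vitamin B12. After siDUSP4 in BT549 the 5 genes changed by -0.38, -0.43, -0.62, -0.36 and -0.39, in the order above. They were picked for likeness to the members on these same arrays, so these changes describe the choice and test nothing.

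Other genes of the pathway gave a mixed picture after siDUSP4. Among 8 further class I-like chains measured of 9 listed, 2 were higher and 0 lower in MDA231, 0 were called in SUM159PT, and 2 were higher and 3 lower in BT549. Of all genes 17.6%, 2.83% and 14.2% were called in these lines. The risers were MICA and MICB, stress-induced ligands of the NKG2D receptor of natural killer cells. MICB had 9.49, 9.36 and 9.52 in siDUSP4 cells of BT549, against 8.72, 8.66 and 8.51 in siCONTROL cells (change 0.83, adjusted p = 8.5e-05), and changed by 0.60 in MDA231 (adjusted p = 0.0023). MICA changed by 0.54 in BT549 and 0.58 in MDA231. FCGRT, the heavy chain of the neonatal Fc receptor, which also pairs with beta-2 microglobulin, fell in BT549 by 0.77 (adjusted p = 1e-04), as did HLA-G by 0.43 and HFE by 0.48. HLA-C did not pass in any line after siDUSP4, and in BT549 it had 11.28, 11.30 and 11.25 in siDUSP4 cells, against 11.50, 11.44 and 11.46 in siCONTROL cells.

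In the proteasome, PSMB5, the constitutive subunit that PSMB8 replaces, fell after siDUSP4 in all 3 lines. PSMB5 had 8.44, 8.51 and 8.58 in siDUSP4 cells of BT549, against 10.34, 10.37 and 10.17 in siCONTROL cells. The changes were -1.14 in MDA231, -1.44 in SUM159PT and -1.78 in BT549, with adjusted p-values from 3.6e-11 to 2e-07. PSMB6, which PSMB9 replaces, was higher in MDA231 (0.32) and lower in BT549 (-0.41), and PSMB7 was higher in MDA231 (0.52). Of 5 further immunoproteasome and PA28 genes, PSME2, PSME3 and POMP were higher in MDA231 (0.46, 0.26 and 0.30), 0 were called in SUM159PT, and PSME1 was lower in BT549 (-0.33). PSMB10, the third immunoproteasome subunit, was not called in any of the 9 comparisons with siCONTROL.

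Among the interferon receptors and JAK kinases, IFNGR1, the ligand-binding chain of the interferon gamma receptor, fell after siDUSP4 in all 3 lines. It had 8.02, 8.05 and 7.94 in siDUSP4 cells of BT549, against 9.52, 9.42 and 9.34 in siCONTROL cells, groups far apart. The changes were -0.79 in MDA231 (adjusted p = 7.4e-05), -0.56 in SUM159PT (0.017) and -1.42 in BT549 (4e-09). Of the 8 genes on that list 0 were higher in any line and 2, 1 and 2 were lower in MDA231, SUM159PT and BT549, against 17.6%, 2.83% and 14.2% of all genes called either way, the others being IFNGR2 in MDA231 (-0.43) and IFNAR2 in BT549 (-0.65).

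Of 11 measured regulators of 13 listed, 2 were higher and 2 lower after siDUSP4 in MDA231, 1 was higher in SUM159PT (RFX5, 0.36), and 3 were higher and 4 lower in BT549. The shares of all genes called there were 17.6%, 2.83% and 14.2%. IRF1, an interferon-induced activator of class I promoters, had 7.58, 7.78 and 7.74 in siDUSP4 cells of MDA231, all above the siCONTROL arrays, which averaged 7.14 ± 0.12 (change 0.56, adjusted p = 0.012). RFXANK, a subunit of the RFX complex that binds class I and class II promoters, changed by -0.75 in BT549 (adjusted p = 0.00027). CIITA, the class II transactivator and a relative of NLRC5, was lower in MDA231 (-0.47) and BT549 (-0.53). The other called regulators were EZH2 (0.45) and NFKB1 (-0.28) in MDA231, and IRF2 (0.41), EZH2 (0.37), RFX5 (0.34), IRF9 (-0.35) and RELA (-0.35) in BT549. Of 6 peptide loading genes, ERAP2, a peptide-trimming aminopeptidase, was higher in MDA231 (0.55) and TAPBP, the tapasin that bridges TAP and the heavy chain, was lower there (-0.32), while 0 were called in SUM159PT and BT549.

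After 24 h of selumetinib most calls on these lists were in MDA231, where 17.7% of all genes were called, against 4.28% in SUM159PT and 15.1% in BT549. There 4 class I-like chains were higher and 0 lower: MR1, which presents vitamin B metabolites (0.91, adjusted p = 9.9e-06), FCGRT (0.57, adjusted p = 0.0019), HFE (0.57) and HLA-C, with 11.34, 11.32 and 11.29 at 24 h, against 10.95, 10.93 and 11.14 in siCONTROL cells (0.31, adjusted p = 0.013). TAPBP had 11.44, 11.31 and 11.39 at 24 h, against 10.97, 10.85 and 11.09 in siCONTROL cells (0.41, adjusted p = 0.0083), and CALR, the chaperone calreticulin, changed by 0.32. PSME1 was higher by 0.23 (adjusted p = 0.049). Of the receptors, IFNGR2 (-0.56) and JAK2 (-0.67) were lower and SOCS3 (0.49), a feedback inhibitor of JAK signalling, was higher. Of the regulators IRF9 (0.46), STAT3 (0.27) and CIITA (0.32) were higher and NFKB1 (-0.52) was lower.

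In SUM159PT 0 genes of these 6 lists were called at 24 h. In BT549 MR1 was higher (0.41, adjusted p = 0.046), RFXANK (-0.47) and CIITA (-0.45) were lower and STAT3 (0.31) was higher, a comparison that holds the array of low upper quartile. Without that array MR1 (0.56), CIITA (-0.34) and STAT3 (0.31) were called, as was IRF2 (0.28), and RFXANK was not (-0.42, adjusted p = 0.069). In that fit 8.93% of all genes were called. At 4 h, TAPBP (-0.42), RELA (-0.37), IFNGR1 (-0.42), IFNGR2 (-0.67) and JAK2 (-0.42) were lower in MDA231, where 15.6% of all genes were called. Without the arrays of low upper quartile 0 of these 5 were called, with changes of -0.03, 0.04, -0.09, -0.20 and -0.23, and 1.28% of all genes were. NFKB1 was lower at 4 h in SUM159PT (-0.30), and 0 genes were called in BT549. DUSP6 was still lower without these arrays, by 4.01 at 4 h in MDA231 and by 0.75 at 24 h in BT549.

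**Figure D5:**
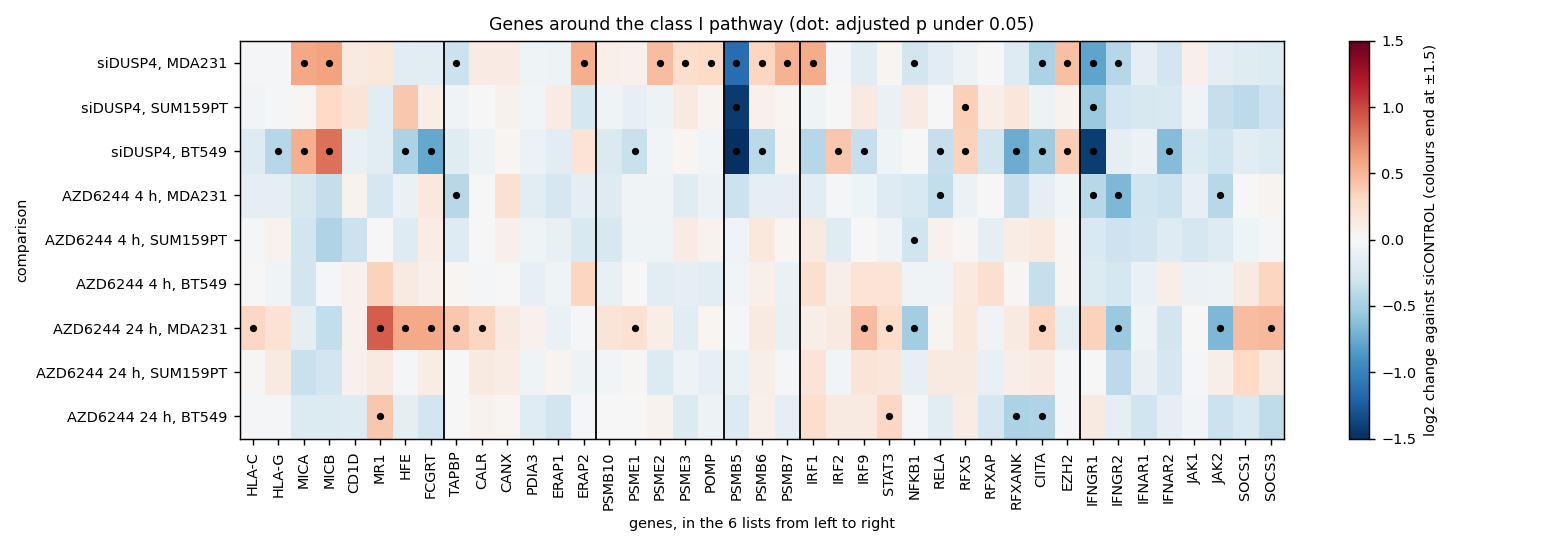
Log2 change against siCONTROL of the measured genes on 6 lists around the class I pathway, with genes along the x axis in list order (class I-like chains, peptide loading, immunoproteasome and PA28, constitutive subunits, regulators, interferon receptors and JAKs) and 9 comparisons down the y axis. Red is higher, blue is lower, colours end at 1.5 log2 units either way, and dots mark an adjusted p under 0.05. PSMB5 and IFNGR1 are blue with a dot in all 3 siDUSP4 rows, MICA and MICB are red with a dot in 2 of them, and the 24 h row of MDA231 has red dots among the chains and loading genes.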

How the data were processed

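The deposited values are log2 signals that the authors made by RMA. Affymetrix Expression Console 1.1 is the tool named, per the submitters' processing notes. For its options and the array's genome build nothing is given in those notes. Array medians were 5.12 to 5.40 and upper quartiles 7.48 to 8.03. Precision is limited by the number of arrays.

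Of 33297 probes, 19181 had 1 gene symbol in the platform annotation and 2055 had several. The single-symbol probes gave 17958 genes, each by its probe of highest mean. HLA-F, TAP1, TAP2, PSMB8 and PSMB9 had 3 probes each. Those of TAP1, of PSMB8 and of PSMB9 gave the same means and changes as printed, so taking their mean could not alter these genes. Sample titles set the groups. In R 4.3.3, limma 3.58.1 fitted a mean for each of 12 groups to all 36 arrays. Its eBayes step had 7.8 prior degrees of freedom beside 24 residual ones, and Benjamini-Hochberg adjustment ran over all genes within a comparison. The procedure was tested on simulated data. No filter on dim genes was applied.

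Members and lists were chosen with earlier results of these data known. Named were all members, DUSP4 and DUSP6, HLA-C, TAPBP, PSMB10 and IRF1, up to 4 called genes of largest change per list, and the 5 genes most like the members. RB1, CD68 and the other list genes named were chosen after their values were seen. HLA-E and some of the other listed genes are not reported here.

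Of 54 pairs of same-lettered arrays, 3 in each of 18 pairs of groups, 12 deviated together (r over 0.1), with r from -0.41 to 0.45. All 3 letters did so in 1 pair of groups, SUM159PT siCONTROL and 4 h, where a replicate block also called 0 members. Elsewhere the letters were not taken to pair samples. Alternatives were another normalization, a filter on dim genes, all probes or their mean, the arrays of 1 line alone, a replicate block and leaving out each array. Aligning upper quartiles and leaving out the 3 arrays of lowest upper quartile were added after seeing the data. Upstream sequences are RefSeq's (GRCh38.p14).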

Additional observations from a re-analysis of the deposited data

Results flagged for a closer look

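The change of B2M after siDUSP4 differed between lines, by an F test of the line difference itself in limma (adjusted p = 0.0092). It was 0.19 in MDA231, 0.02 in SUM159PT and -0.58 in BT549, and the difference of MDA231 minus BT549 was 0.78 ± 0.19 (SE).

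The change of PSMB8 after siDUSP4 also differed between lines by that test (adjusted p = 0.030), and the call was lost with all probes tested (0.059) and without any 1 of 6 arrays (0.053 to 0.076). SUM159PT minus BT549 was 0.68 ± 0.21, and MDA231 minus SUM159PT was -0.01 ± 0.21.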

How the results depend on the processing

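Values here are counts of the 8 members called. A setting can change calls over all genes too, and the share of all genes called is not given for each setting. The counts are therefore not read as results about the members. The 3 counts between lines in siCONTROL cells, and 0 of 8 after siDUSP4 or 24 h of selumetinib in SUM159PT, stayed within 1.5 times of their main values in every setting run, and so did the 4 called after siDUSP4 in BT549, where leaving out each array gave 3 to 4. In MDA231 the 2 called after siDUSP4 became 1 with all probes tested and 0 with the arrays of the line alone, and 0 to 1 when each array was left out. The 4 called at 4 h in MDA231 became 2 under repeated quantile normalization, 2 with all probes tested, 0 with the line alone, 0 with upper quartiles aligned and 0 without the 3 arrays of low upper quartile, and 0 to 7 when each array was left out, with 7 reached without 4 h array A. In SUM159PT 0 became 1 at 4 h with upper quartiles aligned, without the 3 arrays and with the line alone, and in BT549 0 became 1 at 4 h under quantile normalization, with upper quartiles aligned and without the 3 arrays. At 24 h the 3 called in MDA231 became 7 under quantile normalization, 8 with upper quartiles aligned, 8 without the 3 arrays and 1 with the line alone, and 1 to 3 when each array was left out. The 1 called in BT549 became 2, 3 and 2 under the first 3 of these settings and 0 to 2 when each array was left out. For 24 h against 4 h, 7 in MDA231 became 3 without the 3 arrays and 6 to 7 when each array was left out. In SUM159PT 1 became 2 without the 3 arrays, 2 with the line alone and 0 with all probes tested, and 0 without any 1 array. In BT549 1 became 0 under quantile normalization, 0 without the 3 arrays, 0 with the line alone and 4 with upper quartiles aligned, and 0 to 1 when each array was left out.

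The line difference of siDUSP4 was called for 2 members, and for 4 under quantile normalization, 4 without the 3 arrays, 1 with all probes tested (B2M) and 1 to 2 when each array was left out. That at 4 h was called for 0, and for 1 under quantile normalization, medians aligned, upper quartiles aligned, the filter on dim genes and without the 3 arrays, and for 0 to 6 when each array was left out. That at 24 h was called for 0, and for 3 under quantile normalization, 3 with upper quartiles aligned, 2 without the 3 arrays and 0 to 2 when each array was left out. Changes that turned in sign and were called in either setting were HLA-B at 24 h in BT549, 0.23 with upper quartiles aligned, and B2M (0.01) and TAP1 (0.10) at 4 h in MDA231 without the 3 arrays. With upper quartiles aligned, another 11 of the 72 changes against siCONTROL turned in sign with no call in either setting: 5 at 4 h in SUM159PT, 3 at 24 h in BT549, 2 at 4 h in MDA231 and 1 at 4 h in BT549, none over 0.18 in size. Where no construction of the setting shows it, the cause was not tested.

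With upper quartiles aligned, the median change of all genes was 0.09 in place of -0.13 at 4 h in MDA231, 0.15 in place of -0.01 at 4 h in SUM159PT and 0.15 in place of -0.09 at 24 h in BT549. The split of all genes called at 4 h in MDA231 was 853 higher and 842 lower, in place of 200 and 2598, and at 24 h in BT549 it was 3371 and 521, in place of 478 and 2235. The replicate block kept the main count in all 12 treatment comparisons and all 3 line differences, with 4 called after siDUSP4 in BT549. The number of arrays limits what differences could be seen.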
